A study of Homo sapiens with 2 samples.

Results

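The nuclear-encoded subunits of respiratory complexes I to IV were examined as a set of 59 genes of 57736 with a row in the deposited tables. They were chosen by name, without use of any measured value, and comprised 36 subunits of complex I, 4 of complex II, 9 of complex III and 10 of complex IV. Every listed symbol matched 1 gene identifier in the GRCh37 annotation. The genes of these complexes on the mitochondrial chromosome were not analysed here.

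Gene expression was measured by RNA-Seq of poly(A)+ RNA from wild-type HEK293T cells, a human embryonic kidney line that carries the SV40 large T antigen, grown without any treatment. There was 1 group with 2 replicates, so the comparisons are between genes and between replicates, and none is between conditions. The libraries held 10593491 and 10104118 estimated counts, which are reads per gene with ambiguous reads shared out among the genes they fit. The labels do not say whether the replicates came from separate cultures, so p-values measure the difference between these libraries, which may be technical. The 5 genes listed as expressed in this line (VIM, UCHL1, KRT18, KRT8 and PAX2) ranged from 3.41 to 338 in mean TPM, a measure of transcript abundance that corrects a count for transcript length and for the size of the library. Of 4 genes of blood, liver and muscle cells, PTPRC had 1 count in each library and ALB, CD3E and MYH7 had 0.

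The respiratory chain passes electrons from NADH and succinate to oxygen and pumps protons across the inner mitochondrial membrane. Complex I oxidises NADH and complex II oxidises succinate, both handing electrons to ubiquinone; complex III passes them on to cytochrome c, and complex IV reduces oxygen to water. The cores of complexes I and III combine subunits from both genomes, the catalytic subunits of complex IV are mitochondrial, and complex II is wholly nuclear-encoded and also serves in the tricarboxylic acid cycle.

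Since respiratory genes are known targets of NRF1 and of the ETS factor GABP, promoter windows were searched for short motifs. RefSeq windows of 250 bases before and 50 after the start of a gene, on GRCh38.p14, were matched by symbol for 51 of the 59 members. The letters searched on both strands were GCATGCGC for NRF1, CCGGAAG for ETS factors, AAGATGGC for YY1, GGGCGG for SP1 and TATAAA for the TATA box, and matches that overlap were each kept. The 3 windows below are shown because each comes from the member with the highest level in its complex whose 250 bases before the start held the NRF1 letters, and capitals mark matches to the NRF1, ETS and YY1 letters. No complex III window held the NRF1 letters. The windows lie at chr3:120596086-120596335 on the plus strand (NDUFB4, complex I), chr1:17054033-17054282 on the minus strand (SDHB, complex II) and chr12:120437863-120438112 on the plus strand (COX6A1, complex IV), and are written 5′ to 3′ in the direction of the gene.
NDUFB4: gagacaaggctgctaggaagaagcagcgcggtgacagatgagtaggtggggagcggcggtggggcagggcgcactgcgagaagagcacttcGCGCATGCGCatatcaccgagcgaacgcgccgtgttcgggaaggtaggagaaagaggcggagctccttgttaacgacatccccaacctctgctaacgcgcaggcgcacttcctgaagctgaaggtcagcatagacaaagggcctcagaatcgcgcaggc
SDHB: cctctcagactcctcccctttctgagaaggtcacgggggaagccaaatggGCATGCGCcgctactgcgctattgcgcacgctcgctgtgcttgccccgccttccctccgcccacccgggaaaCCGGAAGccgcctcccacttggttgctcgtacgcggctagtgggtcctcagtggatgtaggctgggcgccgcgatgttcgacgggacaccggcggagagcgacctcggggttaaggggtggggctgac
COX6A1: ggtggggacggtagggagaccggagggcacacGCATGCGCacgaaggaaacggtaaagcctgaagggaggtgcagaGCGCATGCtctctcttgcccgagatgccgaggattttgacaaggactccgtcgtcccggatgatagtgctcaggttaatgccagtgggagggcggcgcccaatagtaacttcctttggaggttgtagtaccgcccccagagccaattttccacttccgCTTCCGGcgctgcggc

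The NDUFB4 window held a run in which the NRF1 letters matched, on opposite strands, from positions -159 and -157, counted from the start of the gene, so these matches overlap. In SDHB the NRF1 letters began at -200 and the ETS letters at -128. In COX6A1 the NRF1 letters began at -218 and -174 and the ETS letters at -16. Over the 300-base windows, the NRF1 letters were present in 9 of 51 members (17.6%), against 5.66% of 10020 detected protein-coding genes and 3.27% of all 27305 windows. The ETS letters were present in 15 members (29.4%), against 19.7% and 10.7%, and the YY1 letters in 8 (15.7%), against 5.45% and 3.03%. The SP1 letters were present in 30 members (58.8%), against 71.7% of detected protein-coding genes and 44.6% of all windows, and the TATA letters in 5 (9.80%), against 5.42% and 11.95%. At least 1 of the NRF1, ETS and YY1 letters occurred in 25 of 51 members (49.0%), against 27.7% of detected protein-coding genes. Members with the NRF1 letters had a median mean TPM of 108 and those without 135, and for the ETS letters these medians were 166 and 108. The ETS letters were present in 5 of 32 complex I windows, 2 of 3 of complex II, 3 of 7 of complex III and 5 of 9 of complex IV. These medians thus mix the complexes in unlike parts, and a link between letters and level was not tested. A match describes these letters and is not a binding site.

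All 59 members reached 1 TPM in each replicate, the threshold for detection. The background was 27.7% of all 57736 genes and 63.7% of 19391 protein-coding genes. The lowest member was above 54.0% of the 12345 detected protein-coding genes and the median member above 93.1%, and all 59 lay above the median detected protein-coding gene, which had a mean TPM of 21.2. Added together, the members took 1.01% of the TPM of replicate 1 and 0.976% of replicate 2, or 0.991% ± 0.0207 (SD, n = 2). They took 0.473% ± 0.0085 of the estimated counts (SD, n = 2), with 50720 counts in replicate 1 and 47166 in replicate 2. The share of TPM thus exceeded the share of counts, and the members are short. Their median protein had 141 residues against 467 for detected protein-coding genes, and 55 of the 59 were shorter than that.

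The level of the members spanned 18.9-fold, from NDUFS4 with 24.6 and 23.5 TPM to COX7C with 444 and 466 TPM in replicates 1 and 2. Across the 59 genes the log2 TPM of the replicates had a Pearson r of 0.99 and a Spearman rho of 0.98, given as a description, since genes are not independent replicates. In the order of mean TPM, the replicate ranges of 16 of 58 neighbouring pairs did not overlap, so most neighbours in the order did not differ beyond their spread. COX7C alone stood above every other member, NDUFB10, COX6A1 and COX7C together stood above the other 56, and NDUFS4 stood below every other member in both replicates. Of the 10 members with the highest level 6 belonged to complex IV, 2 to complex III and 2 to complex I. Of the 10 with the lowest level 8 belonged to complex I, 1 to complex II, 1 to complex III and 0 to complex IV.

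**Figure D1:**
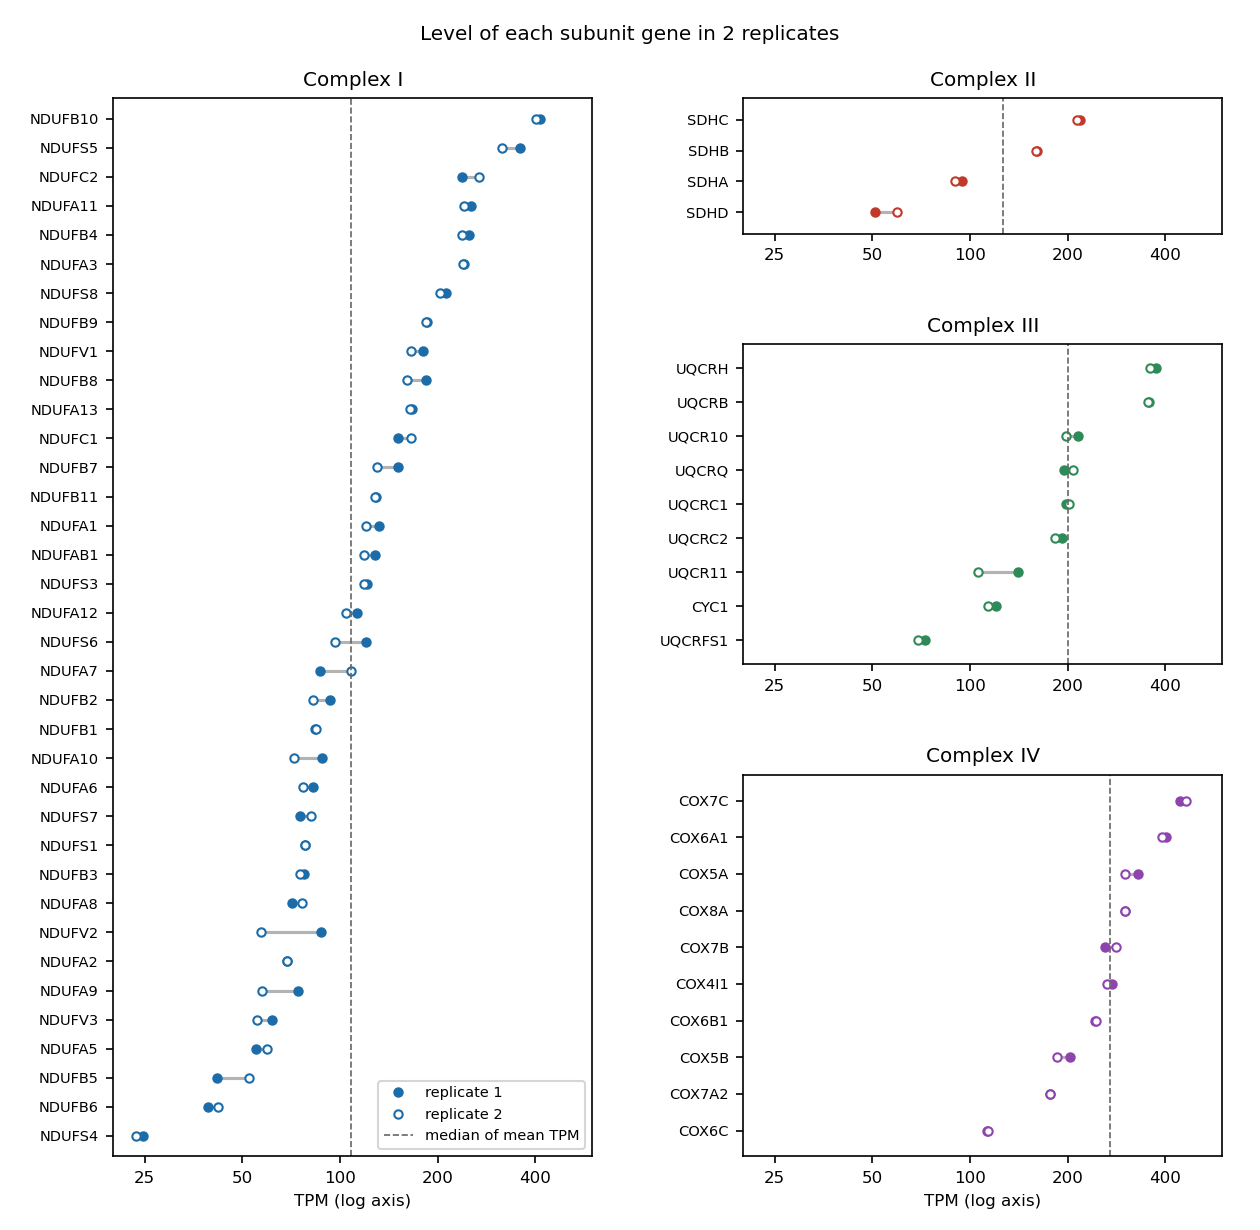
TPM of each of the 59 subunit genes (log axis) by complex, with filled points for replicate 1, open points for replicate 2 and a dashed line at the median of the mean TPM. Complex IV genes lie between 113 and 466 TPM, whereas complex I genes spread from 23.5 to 413 TPM, and NDUFV2 has the widest gap between its points among the core subunits.

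The complexes were compared to describe how their transcripts are balanced. The median TPM of complex I members was 116 in replicate 1 and 106 in replicate 2, and that of complex II members was 128 and 125. For complex III it was 195 and 198, and for complex IV 268 and 273. The replicate medians of the 4 complexes did not overlap, and each gap exceeded the SD between replicates (7.07 TPM for complex I, 2.21 for II, 1.94 for III and 3.49 for IV, n = 2). The ratio to complex I of the median over mean TPM was 1.16 for complex II, 1.85 for complex III and 2.49 for complex IV, with SDs of the replicate ratios of 0.0521, 0.129 and 0.186 (n = 2). Single genes overlapped between complexes, and 14 of 36 complex I members were above the complex II median and 2 above the complex IV median. All 10 complex IV members were above the complex I median. The spread of levels, as an SD of log2 TPM between genes, was 0.89 in complex I, 0.87 in complex II, 0.76 in complex III and 0.58 in complex IV.

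The balance of the complexes depended on the scale. By estimated counts, which are not divided by length, the median member had 569 counts in complex I, 975 in complex II, 1000.5 in complex III and 1055 in complex IV. Complexes II, III and IV, which differ in median TPM by 2.14-fold at most, thus had nearly level median counts, and their median transcript lengths were 1001 nt, 729 nt and 556 nt. As shares of the whole library, complex I took 0.482% ± 0.014 of the TPM, complex IV 0.274% ± 0.0017, complex III 0.183% ± 0.0049 and complex II 0.0524% ± 0.00014 (SD, n = 2). Of the estimated counts the shares were 0.235% ± 0.0053 for complex I, 0.104% ± 0.0023 for complex III, 0.097% ± 0.00065 for complex IV and 0.0369% ± 0.00023 for complex II (SD, n = 2). As a share of the library, complex IV was therefore ahead of complex III by TPM and behind it by counts, although its median count per member was higher.

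**Figure D2:**
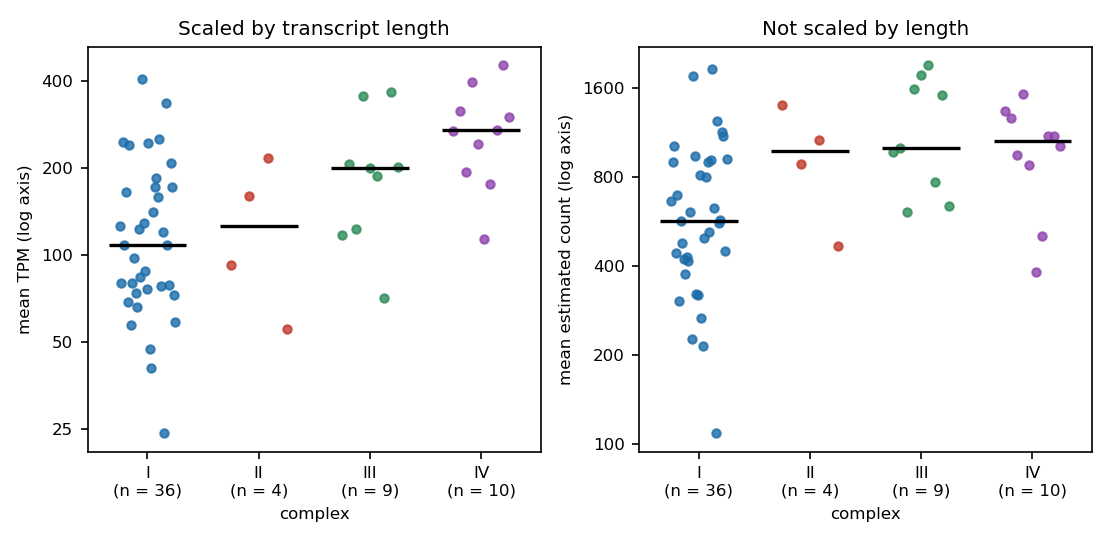
Mean TPM (left) and mean estimated count (right) of each subunit gene on log axes by complex, with black bars at the medians. The medians climb from 108 to 270.5 TPM from complex I to complex IV, whereas the median counts of complexes II, III and IV lie between 975 and 1055.

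In complex I, the core subunits of the matrix arm bind the flavin and the iron-sulfur clusters that carry electrons from NADH to ubiquinone. NDUFV1, which binds the flavin and NADH, had 180.1 and 165 TPM in replicates 1 and 2. NDUFS8, an iron-sulfur subunit near ubiquinone, was the highest of the 6 with 212 and 204 TPM, and NDUFS3, in the same module, had 121 and 118 TPM. The other core subunits were lower and overlapped. NDUFS1, the largest subunit of the complex, had 78.1 and 77.8 TPM, and NDUFS7, which holds the last iron-sulfur cluster before ubiquinone, had 75.5 and 81.6 TPM. NDUFV2, a further iron-sulfur subunit of the NADH-oxidising end, had 87.6 and 57.1 TPM. The replicates of NDUFV2 thus differed more than those of any other core subunit.

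The 9 accessory subunits of the matrix arm were lower than the core, with a median of 68.6 TPM ± 4.12 against 99.2 ± 3.17 (SD of the replicate medians, n = 2). NDUFA12 had 113 and 104 TPM, and NDUFS6, which binds zinc, had 120.2 and 96.3 TPM. NDUFA7 had 86.6 and 108 TPM, whereas NDUFA6, which belongs to the LYR protein family, had 82.5 and 77.0 TPM. NDUFA9, a subunit next to the ubiquinone site, had 74.4 and 57.3 TPM. The lower end of this arm held NDUFA2 (68.6 TPM in each replicate), NDUFV3 (61.6 and 55.4 TPM) and NDUFA5 (55.0 and 59.7 TPM). NDUFS4, a subunit mutated in Leigh syndrome, was the lowest of all 59 members with 24.6 and 23.5 TPM from 112 and 106 counts. Its counts were whole, and it shared no 50-base window with another gene.

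The 20 accessory subunits of the membrane arm covered a 10.0-fold range, with a median of 149.5 TPM ± 4.02 (SD of the replicate medians, n = 2), above both parts of the matrix arm. Its ratio to the core was 1.51, against 1.04 without members under 600 nt effective length and 0.786 by estimated counts. NDUFB10 led with 413 and 403 TPM, and NDUFS5 followed with 358 and 316 TPM. NDUFC2 had 237 and 269 TPM, NDUFA11 254 and 241, NDUFB4 249.7 and 238 and NDUFA3 241 and 239, and these 4 could not be ordered beyond their spread. A middle group comprised NDUFB9 (185 and 184 TPM), NDUFB8 (184 and 161), NDUFA13 (167 and 165), NDUFC1 (151 and 166), NDUFB7 (151 and 130.05), NDUFA1 (131 and 121) and NDUFB11 (129.6 and 128). NDUFA13 is also known as GRIM-19, a protein linked to cell death. Lower values were found for NDUFB2 (92.85 and 82.8 TPM), NDUFB1 (83.5 and 84.4), NDUFA10 (87.9 and 71.9), NDUFB3 (77.6 and 75.1) and NDUFA8 (71.1 and 76.6). NDUFB5 had 41.8 and 52.5 TPM and NDUFB6 39.2 and 42.0 TPM, and both lay below every other membrane arm member in both replicates. NDUFAB1, the mitochondrial acyl carrier protein that also serves fatty acid synthesis, had 129 and 118 TPM. Taking all 30 accessory subunits, their median was 1.09 times that of the core, a ratio of 0.627 by estimated counts and of 0.774 without members under 600 nt effective length.

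In complex II, SDHC, one of the membrane anchors, had 219 and 214 TPM, and SDHD, the other anchor, had 50.9 and 59.6 TPM. The anchors, which meet in the same complex, thus differed 3.92-fold in mean TPM. SDHB, the iron-sulfur subunit, had 161 and 159.6 TPM and SDHA, the flavoprotein that oxidises succinate, had 94.5 and 89.7 TPM. The ranges of the 4 genes did not overlap. By estimated counts SDHA led instead, with 1454 and 1344 counts from the longest transcript of the 4.

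In complex III, the catalytic subunits encoded in the nucleus had the lowest mean TPM of the 9. UQCRFS1, the Rieske iron-sulfur protein, had 72.7 and 69.0 TPM, and CYC1, cytochrome c1, had 119.9 and 114.0 TPM. The core proteins UQCRC1 (198 and 203 TPM) and UQCRC2 (192 and 183 TPM) differed by 1.07-fold in mean TPM. The small accessory subunits UQCRH (375 and 360.3 TPM) and UQCRB (355 and 354 TPM) were the highest. UQCR10 had 215 and 198 TPM, UQCRQ 195 and 208 TPM and UQCR11 140.4 and 106 TPM. The difference in UQCR11 was larger in TPM than in counts (660 and 555), and in replicate 2 its TPM was below that of CYC1. By counts CYC1 (1015 and 927) and UQCRFS1 (804 and 734) were both above UQCRQ (621 and 649) and UQCR11.

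In complex IV, whose catalytic subunits are mitochondrial, the nuclear subunits surround the core. COX7C led with 444 and 466 TPM, and COX6A1 had 403 and 390.2 TPM. COX5A (329 and 302 TPM), COX8A (302 and 301), COX7B (261 and 282) and COX4I1 (275 and 264) followed. COX4I1, which binds ATP as a regulator of the complex, and COX7B overlapped in their replicate ranges. COX6B1, at the dimer interface, had 242 and 245 TPM, COX5B, a zinc-binding subunit, 204 and 185 TPM, and COX7A2 176 in each replicate. COX6C was the lowest with 113 and 114 TPM, below every other complex IV member in both replicates.

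Level was set against transcript length. Over the 59 members log2 mean TPM and log2 length had a Pearson r of -0.45 and a Spearman rho of -0.53, so shorter transcripts had higher TPM, whereas for log2 counts the values were 0.27 and 0.15. Over 12345 detected protein-coding genes the values for TPM were -0.22 and -0.20. All these genes share the same libraries and TPM is itself divided by length, so the values are descriptions with no test. Within complex I (n = 36) the rho was -0.51, within complex III (n = 9) -0.77 and within complex IV (n = 10) -0.10.

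**Figure D3:**
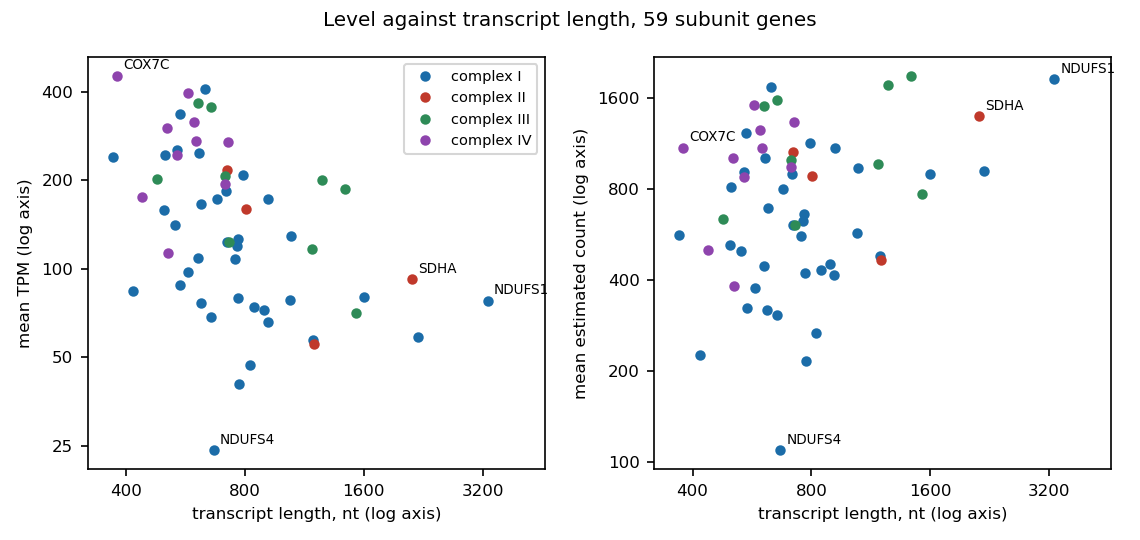
Mean TPM (left) and mean estimated count (right) against transcript length in nt, all on log axes, 1 point for each of the 59 subunit genes. Short transcripts such as COX7C sit high on the TPM axis, whereas the longest, NDUFS1, sits low in TPM (77.9) and near the top in counts (1864 and 1839).

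The libraries were compared gene by gene, taking the rounded counts into a two-sided exact binomial test, with p adjusted by Benjamini-Hochberg over 17920 genes. Of all genes tested 3.88% differed at an adjusted p under 0.05, and 4 of 59 members did. They were NDUFV2, NDUFV3, NDUFS6 and NDUFA7, which belong to the matrix arm of complex I. With RLE scaling 3 members were called, without NDUFA7, against 4.20% of all genes tested. With testing limited to summed counts of 100 or more there were 5, with NDUFC2 of the membrane arm added, against 4.26%. The members had a median absolute log2 ratio of 0.07 between the libraries, against 0.08 for 8688 protein-coding genes with summed counts in the same range, and 35 of 59 (59.3%) were lower in replicate 2, against 49.7% of all genes tested. By TPM 41 members were lower in replicate 2, a number given without a background over other genes. An unadjusted p under 0.05 was reached by 11 of 59 members, against 13.3% of all genes tested.

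NDUFV2, at chr18:9102628-9134343 on GRCh37, had 559 counts in replicate 1 and 343 in replicate 2, a log2 ratio of -0.63 (exact binomial test, Benjamini-Hochberg adjusted p = 4.14e-08). An unnamed long noncoding RNA gene (ENSG00000265257, chr18:9102734-9254344) overlaps it and holds 89.4% of the 50-base windows of the NDUFV2 transcript. This neighbour had 0 counts in replicate 1 and 192 in replicate 2. The sums of the pair were 559 and 535 counts, a log2 ratio of 0.015. The posterior SD of the NDUFV2 count, the uncertainty that the estimation itself gave, was 11.6% of the posterior mean count in replicate 1 and 18.5% in replicate 2, against medians of 0.197% and 0.168% over the members. The exact binomial test takes the estimated counts as given and leaves this uncertainty out. The deposited TPM intervals of NDUFV2 overlapped, from 56.4 to 91.5 in replicate 1 and from 37.5 to 76.2 in replicate 2. The test thus does not show a difference beyond the error of these estimates. The sums gave an unadjusted p of 0.88 in the exact binomial test, a comparison added after the data were seen.

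NDUFA7, at chr19:8373652-8386259, had 341 and 409 counts, a log2 ratio of 0.34 (exact binomial test, adjusted p = 0.0367). An unnamed overlapping protein-coding gene (ENSG00000167774) holds 75.9% of its windows and had 35.3 and 0 counts. The sums were 376 and 409 counts, a log2 ratio of 0.20 (exact binomial test, unadjusted p = 0.0539), and the posterior SD of NDUFA7 was 11.9% and 8.18% of its posterior mean count. NDUFV3, at chr21:44299754-44333414, had 1024 and 819 counts, a log2 ratio of -0.24 (adjusted p = 0.0126 by the exact test). NDUFS6, at chr5:1801521-1816162, had 630.0 and 491 counts, a log2 ratio of -0.28 (adjusted p = 0.0357 by the exact test). These 2 had posterior SDs of at most 0.0303% of the posterior mean count, and sharing with other genes was 4.845% of windows for NDUFV3 and 0% for NDUFS6. The NDUFV3 windows come from a canonical transcript of 5725 nt, against lengths of 2275 and 2106 nt given with the counts. With a negative binomial error at the estimated dispersion 1 member (NDUFV2) and 1.20% of all genes differed.

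**Figure D4:**
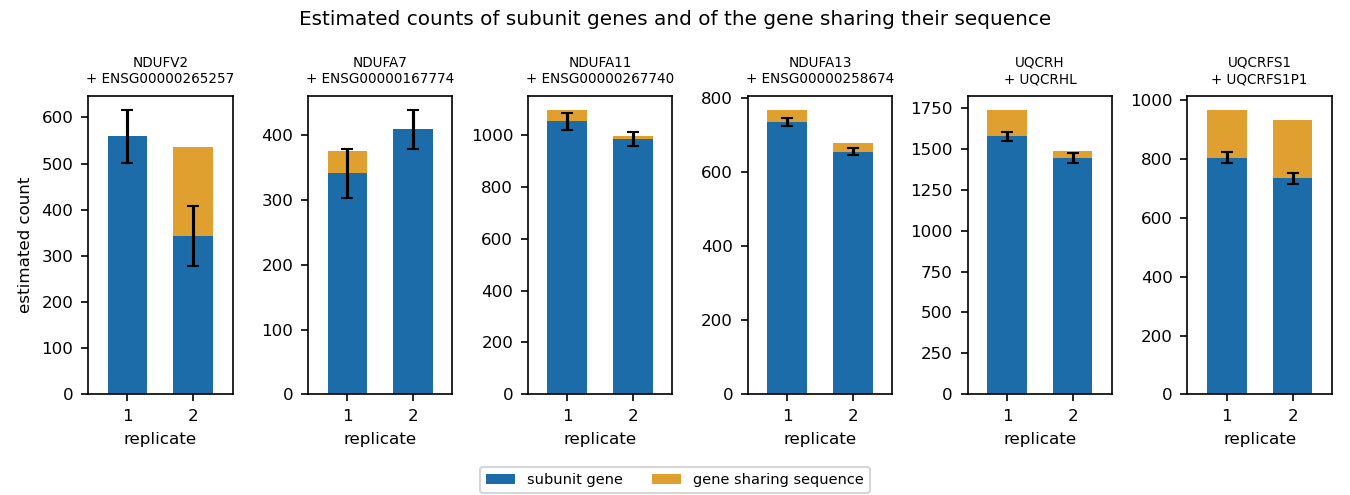
Estimated counts in replicates 1 and 2 of 6 subunit genes (blue, with bars of 1 posterior SD) and, stacked on top, of the gene sharing most of the sequence (yellow). In NDUFV2 the blue part falls from 559 to 343 counts while the whole column goes from 559 to 535.

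Sequence shared with other genes was searched for in the members only. Windows of 50 bases found in another gene with a row were present in 35 of 59 members, and 5 members shared over 50% of them (NDUFV2, NDUFA13, NDUFA7, NDUFB8 and NDUFA11). No background over other genes was computed for these counts of members. Some shared windows match many genes, as in NDUFV3 (539 genes) and NDUFS1 (339 genes). The counts of 36 members were 0.005 or more from a whole number in at least 1 replicate (61.0%), against 49.4% of detected protein-coding genes. For 3 members (NDUFV2, NDUFA7 and NDUFA9) the posterior SD was 5% or more of the posterior mean count, a number given without a background over other genes. NDUFA11 shared 65.4% of its windows with ENSG00000267740, which had 44.8 and 13.1 counts beside 1052 and 984 of NDUFA11. The rank correlation of the posterior SD, as a percent of the posterior mean count, with the share of windows was 0.77 over the 59 members, as a description. The share refers to canonical transcripts, some of them far longer than the lengths given with the counts.

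UQCRH illustrates a copy made from its processed transcript. Its paralog UQCRHL, at chr1:16133664-16135843 against chr1:46769370-46782448 for UQCRH, has a coding sequence of the same 276 bases with 4 differences (98.6% identity). The coding sequences from GENCODE on GRCh37 are shown because reads between the differences fit both genes, with the differing bases in capitals.
UQCRH: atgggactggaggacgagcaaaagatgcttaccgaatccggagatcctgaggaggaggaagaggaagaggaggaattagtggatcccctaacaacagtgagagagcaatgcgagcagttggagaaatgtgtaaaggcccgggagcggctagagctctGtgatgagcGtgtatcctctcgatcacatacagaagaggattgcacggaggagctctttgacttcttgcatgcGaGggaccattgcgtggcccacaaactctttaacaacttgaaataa
UQCRHL: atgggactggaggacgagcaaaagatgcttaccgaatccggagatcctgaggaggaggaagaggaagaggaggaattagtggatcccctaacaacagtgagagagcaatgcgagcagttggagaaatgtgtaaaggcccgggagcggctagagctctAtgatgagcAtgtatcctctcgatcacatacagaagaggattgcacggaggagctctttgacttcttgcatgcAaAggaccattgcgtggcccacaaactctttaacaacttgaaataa

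The substitutions from UQCRH to UQCRHL, counted from 1 at the first base of the start codon, were G158A, G167A, G231A and G233A. UQCRHL had 163 counts in replicate 1 and 43.0 in replicate 2, a log2 ratio of -1.83 (exact binomial test, adjusted p = 8.38e-14), with posterior SDs of 27.6 and 29.1 counts. UQCRH had 1574 and 1444 counts, a log2 ratio of -0.05, with the same posterior SDs. The sums of the pair were 1737 and 1487 counts, a log2 ratio of -0.15 (exact binomial test, unadjusted p = 0.00431).

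Pseudogenes named after members numbered 134, from 36 parents, and the parents with the largest numbers were COX6C (17) and NDUFB4 and NDUFA5 (12 each). Their summed TPM was 1.23% ± 0.042 of that of the members (SD, n = 2). Of the 134, 85 had 0 counts in both libraries and 11 were detected. The highest was UQCRFS1P1 on chromosome 22 with 28.3 and 35.5 TPM, which was 45.0% of the mean TPM of its parent, the Rieske protein gene. It was followed by 3 copies of SDHA. SDHAP3 had 21.8 and 22.6 TPM, SDHAP4 15.1 and 16.9 TPM and SDHAP1 13.75 and 13.9 TPM. COX6CP1 was next with 4.02 and 2.50 TPM from 5 and 3 counts. Of the 8 with enough counts to test, 0 differed between the libraries by the exact binomial test after adjustment or with a negative binomial error, and 1 (UQCRFS1P1) had an unadjusted p under 0.05.

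The members lay on 20 chromosomes, with 9 on chromosome 19 and 6 each on chromosomes 5 and 11. A protein-coding gene on the opposite strand with its start within 1000 bp, head to head, was found for 25 of 59 members (42.4%), against 18.0% of detected protein-coding genes. The count was 18 of 36 for complex I, 2 of 4 for complex II, 3 of 9 for complex III and 2 of 10 for complex IV. Some neighbours encode mitochondrial proteins too, such as MRPL36 beside NDUFS6, MRPL47 beside NDUFB5 and TIMM8B, an import chaperone, beside SDHD. Of the 26 neighbours 22 were detected, and all 26 ranged from ENSG00000267314 beside NDUFA11 (0 and 0.09 TPM) to EEF1B2 beside NDUFS1 (522 and 466 TPM). GDF9 beside UQCRQ had 0.21 and 0.40 TPM, where UQCRQ had 195 and 208 TPM. Members with a head-to-head neighbour had a median of 119.9 TPM and the others 167 TPM. These medians also mix the complexes in unlike parts, and a link between a neighbour and level was not tested.

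Of 10 paralogs of the subunits, several of them tissue-specific, 3 were detected. COX4I2, COX6A2, COX7B2 and COX8C had 0 counts in both libraries, which allows up to 3 counts, or 0.283 and 0.297 CPM (counts scaled to the library total), for counting error only. COX7A1, the muscle isoform, had 3 and 4 counts, COX6B2 8 and 6.90 and NDUFA4L2 6 and 8. The corresponding members COX4I1, COX6A1, COX7B, COX8A, COX7A2 and COX6B1 were all higher, the lowest being COX7A2 at 176 TPM in each replicate. NDUFA4, now placed in complex IV, had 193 and 165.5 TPM, and COX7A2L, which links complexes III and IV, 60.3 and 63.7 TPM. UQCRHL, with 95.7 and 26.3 TPM, was the only one of the 5 tested that differed between the libraries.

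Other genes of the pathway were set beside the subunits in a list chosen by function. The 16 genes of ATP synthase had a median of 287 TPM ± 3.32 (SD of the replicate medians, n = 2), from 147 for ATP5F1E to 813 for ATP5F1B, the catalytic beta subunit, and 1 of 16 differed between the libraries, ATP5MF with 1559 and 1211 counts (exact test, adjusted p = 2.88e-05). Assembly factors were lower, with medians of 35.3 TPM for 15 of complex I, 21.6 for 4 of complex II, 46.5 for 6 of complex III and 42.7 for 20 of complex IV, and all 45 were detected. The highest were LRPPRC, which stabilises mitochondrial mRNA, with 163 TPM and NDUFAF3 with 147 TPM. COX11, a copper chaperone, had 680 and 784 counts and was 1 of the 45 that differed (exact test, adjusted p = 0.00844). CYCS, which encodes cytochrome c, had 322 and 307 TPM and was the highest of 14 genes for mobile electron carriers, whose median was 31.7 TPM.

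Among 11 regulators, TFAM, which packages mitochondrial DNA, had 105 and 103 TPM and YY1 96.6 and 100.2 TPM. NRF1 had 16.6 and 22.2 TPM, GABPA, the DNA-binding part of GABP, 18.65 and 23.5 TPM and PPARGC1A, the coactivator that raises mitochondrial gene expression, 1.95 and 1.63 TPM. GABPA was the 1 of 11 that differed between the libraries, with 673 and 781 counts (exact test, adjusted p = 0.00581). The 13 genes of the tricarboxylic acid cycle had a median of 72.2 TPM, with MDH2 at 440 and CS at 265 TPM, and DLD alone differed, with 1232 and 1337 counts (exact test, adjusted p = 0.0209). Complex II subunits, which also belong to that cycle, had a median of 126 TPM.

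**Figure D5:**
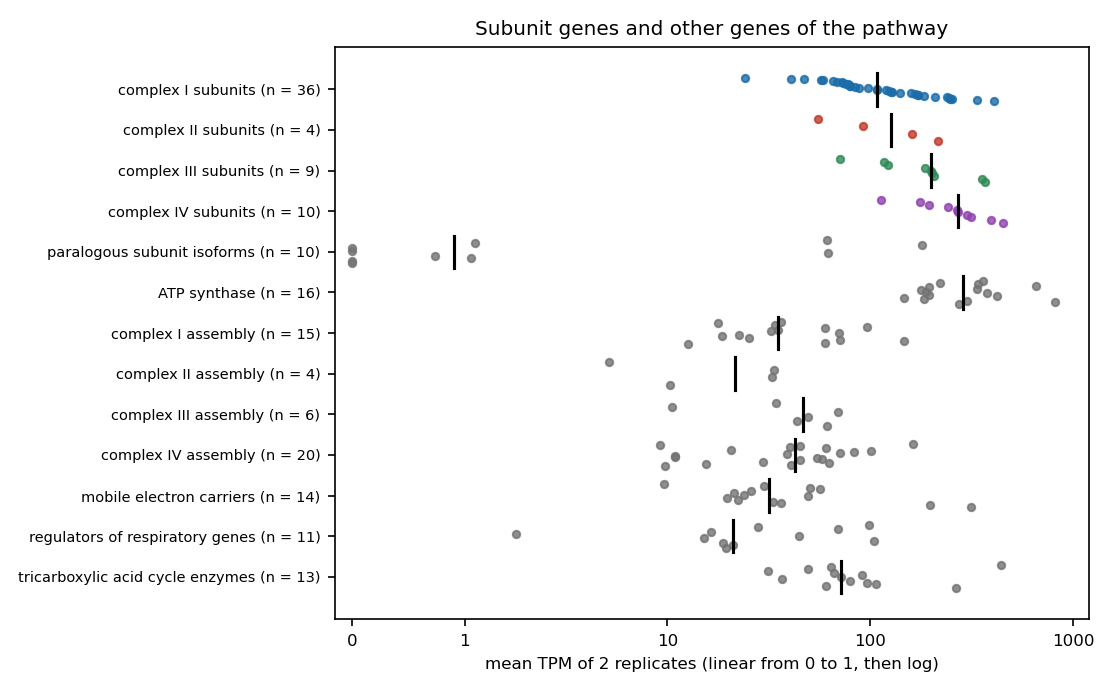
Mean TPM of 2 replicates for the subunit genes by complex (coloured) and for other lists of the pathway (grey), with black bars at the medians and an axis that is linear from 0 to 1 and logarithmic above. The ATP synthase and complex IV medians are 287 and 270.5, the assembly factors between 21.6 and 46.5, and 4 paralogs lie at 0.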

How the data were processed

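The study measured poly(A)+ RNA of HEK293T cells by Illumina sequencing of 2 libraries. According to the methods and the submitters' processing notes, Trimmomatic 0.36 trimmed the reads and STAR 2.6.1c aligned them to GRCh37. The methods name featureCounts, but the deposited columns are those of RSEM, given in the notes as version 1.3.1. In the deposited estimated counts a read that fits several genes is split among them. The authors' TPM and FPKM values divide these counts by effective length, FPKM also by library size. The deposited posterior SD and TPM interval bounds were treated as scores of uncertainty. Length exceeded effective length by a median of 48.2 nt, close to the read length. TPM lay above its own interval for 21 and 19 of 59 members, as that interval surrounds the posterior mean. A table of pooled reads was not used.

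Symbols and GRCh37 coordinates were taken from GENCODE release 44, lifted to that build, which matched 96.1% of identifiers. Promoters came from RefSeq on GRCh38.p14, using the first window listed for a symbol. Detection required 1 TPM in both replicates. Rounded counts of the libraries were compared with an exact binomial test, two-sided, at TMM-scaled library sizes (edgeR 4.0.16, R 4.3.3, scipy 1.17.1). P-values were adjusted by Benjamini-Hochberg where the replicates together had 10 counts or more, and 0.5 counts were added for log2 ratios. On simulated libraries with Poisson counts the test found 169 of 200 genes changed 1.5-fold and 8 unchanged ones, among 17954 tested. The changed genes were drawn from those with summed counts of 200 or more. The simulation held counting error only, so it does not give the rate of calls in these libraries. There, a negative binomial error lowered the genes differing from 3.88% to 1.20%. Shared windows were 50-base stretches of the canonical transcript found in transcripts of another gene. That transcript can be longer than the length given with the counts, as for UQCRB (8459 nt against 658 and 651 nt). The percent of shared windows may thus differ from that of the transcripts counted. The sources used here do not say whether strand was used in counting, so overlapping and antisense genes cannot be told apart. Alternatives were other units, thresholds, normalizations and filters, and each replicate alone. Genes named were all members, all listed pathway genes, the 5 highest pseudogenes and genes sharing sequence with a member; the last were chosen after their values were seen. Members and lists were chosen with earlier results of these data known. No identifier was matched for 2 listed genes, which were not analysed here.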

Additional observations from a re-analysis of the deposited data

How the results depend on the processing

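No paired analysis was possible because both samples form 1 group. Over 100 alternative values, 56 kept their call or stayed within the spread between replicates, or within 1.5 times for a count, 39 moved, 4 reversed and 1 lost its call. All 59 members stayed detected under every threshold tried. Taking 1 replicate alone, the ratio of median TPM to complex I ranged from 1.10 to 1.17 for complex II, from 1.67 to 1.86 for complex III and from 2.30 to 2.56 for complex IV, and that of membrane arm accessory to core subunits from 1.45 to 1.46. By estimated counts (an alternative added after seeing the data) complex II was at 1.71 and complex IV at 1.85 times complex I, and the accessory to core ratio reversed to 0.627 for all accessory subunits and to 0.786 for those of the membrane arm. Leaving out members under 600 nt effective length gave 1.59, 2.37 and 2.93 times complex I for complexes II, III and IV, reversed the accessory to core ratio to 0.774 and brought that of the membrane arm to 1.04. With an assumed fragment length of 200 nt, also added after seeing the data, complexes II and III were at 1.03 and 1.58 times complex I, the accessory to core ratios were 1.19 and, for the membrane arm, 1.76, and the rank correlation of TPM with length was -0.64. Adding pseudogene copies to their parents gave 1.40 for complex II over I. The share of complex I was 0.4503% by posterior mean TPM, 0.692% of protein-coding TPM, 0.217% without short members and 0.235% of estimated counts. For complex II the shares were 0.0493% by posterior mean TPM, 0.0753% of protein-coding TPM, 0.0578% with pseudogene copies and 0.0369% of counts. For complex III they were 0.170% by posterior mean TPM, 0.263% of protein-coding TPM, 0.126% without short members and 0.104% of counts. For complex IV they were 0.254% by posterior mean TPM, 0.393% of protein-coding TPM, 0.275% with pseudogene copies, 0.0464% without short members and 0.0970% of counts. The membrane arm to core ratio was 1.47 by posterior mean TPM, and pseudogene copies made up 1.33% of member counts. Members differing between the libraries numbered 2 with no filter on the summed count, against 1.84% of all genes tested. With a negative binomial error there was 1, against 1.20%. Among genes with whole counts (within 0.005) there were 0 of 23 members, against 0.818%. Of those 23, 3 had an unadjusted p under 0.05 in the exact binomial test, a number given without a background over other genes. Summing a called member with the gene sharing most windows with it, also added after seeing the data, turned the log2 ratio of NDUFV2 from -0.63 to 0.015 and brought that of NDUFA7 from 0.34 to 0.20. The cause of these changes was not tested. With 2 libraries the SD between replicates rests on 1 difference, and intervals and floors cover counting error only.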
